A study of Mus musculus with 9 samples.

Results

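DNA methylation was examined at 9 genes that restrain the cell cycle or suppress tumours: Cdkn2a, Cdkn2b, Cdkn1a, Cdkn1c, Trp53, Trp73, Rb1, Cdh1 and Rassf1. They were taken by name from the 49993 genes of a RefSeq table, and a CpG counted as theirs if it lay between 2 kb outside one gene end and 2 kb outside the other and had at least 1 read in each of 9 libraries. That gave 898 CpGs of the 1096949 read in every library. The rule used gene names, positions and read coverage, and no methylation level.

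All libraries came from Abl.1, a clonal line of immortalised B cells from a female F1 of the mouse strains 129S1/SvImJ and CAST/EiJ, so every value describes 1 clone. The method was reduced representation bisulfite sequencing (RRBS), which reads mainly CpG-rich fragments and tells methylated from unmethylated cytosine; the deposited tables did not separate the 2 parental alleles. On day 2 of growth, live cells were recovered by density centrifugation from medium with 1% DMSO (2 libraries) or with 5-aza-dC at 0.2 µM (2 libraries), 2 µM (3 libraries) or 10 µM (2 libraries). 5-aza-dC is a cytidine analogue that is built into new DNA and traps the enzymes that methylate it. The labels call the replicates library preparations and name no separate cultures, so the p-values below measure only the spread between these libraries, which may be technical. Expression of the genes was not analysed here.

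Several of the 9 genes bear on the step at which a cell commits to divide. Proteins of the INK4 family (p16 from Cdkn2a, p15 from Cdkn2b) and of the CIP/KIP family (p21 from Cdkn1a, p57 from Cdkn1c) block cyclin-dependent kinases, which leaves the Rb1 protein free to hold back E2F factors, while Arf, a further product of Cdkn2a, protects p53 (Trp53) from breakdown. CpG islands at the starts of such genes are unmethylated in most normal cells and are often methylated in tumours and in lines kept in culture.

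The promoters of Cdkn2a, Trp73 and Rassf1 are printed because each of these genes has 2 starts in the RefSeq table and levels are given below for both. Cdkn1a also has 2, but no CpG was read near its upstream start. Each sequence holds the 250 bases before and 50 bases after the start, 5′ to 3′ on the gene's strand, from RefSeq (GRCm38.p6, the assembly that mm10 is built on), and capitals mark each CG. The upstream start of Cdkn2a (chr4:89294570-89294869, minus strand) is the one used for Arf, and the downstream start (chr4:89282143-89282442, minus strand) the one used for p16. The upstream start of Trp73 lies at chr4:154139826-154140125 and the internal one at chr4:154097124-154097423, both on the minus strand. The upstream start of Rassf1 lies at chr9:107551305-107551604 and the downstream one at chr9:107554333-107554632, both on the plus strand.
Cdkn2a upstream start: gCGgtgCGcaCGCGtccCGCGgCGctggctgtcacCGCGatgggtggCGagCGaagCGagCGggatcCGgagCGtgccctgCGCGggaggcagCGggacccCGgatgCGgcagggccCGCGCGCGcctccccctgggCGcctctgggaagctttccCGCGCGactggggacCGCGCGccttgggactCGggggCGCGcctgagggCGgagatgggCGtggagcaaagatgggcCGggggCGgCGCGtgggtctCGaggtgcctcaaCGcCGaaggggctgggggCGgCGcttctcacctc
Cdkn2a downstream start: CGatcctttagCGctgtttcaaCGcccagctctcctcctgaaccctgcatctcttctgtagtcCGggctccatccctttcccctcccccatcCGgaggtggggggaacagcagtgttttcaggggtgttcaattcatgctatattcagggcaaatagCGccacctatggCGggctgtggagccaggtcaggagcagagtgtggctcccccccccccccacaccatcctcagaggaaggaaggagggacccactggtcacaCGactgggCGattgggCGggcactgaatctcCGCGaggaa
Trp73 upstream start: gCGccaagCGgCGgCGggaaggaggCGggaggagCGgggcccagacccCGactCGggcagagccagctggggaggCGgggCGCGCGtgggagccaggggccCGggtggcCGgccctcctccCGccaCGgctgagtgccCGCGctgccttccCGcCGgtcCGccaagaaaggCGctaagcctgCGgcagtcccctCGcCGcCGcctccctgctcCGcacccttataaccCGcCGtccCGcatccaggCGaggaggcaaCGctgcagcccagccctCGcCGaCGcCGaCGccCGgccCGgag
Trp73 internal start: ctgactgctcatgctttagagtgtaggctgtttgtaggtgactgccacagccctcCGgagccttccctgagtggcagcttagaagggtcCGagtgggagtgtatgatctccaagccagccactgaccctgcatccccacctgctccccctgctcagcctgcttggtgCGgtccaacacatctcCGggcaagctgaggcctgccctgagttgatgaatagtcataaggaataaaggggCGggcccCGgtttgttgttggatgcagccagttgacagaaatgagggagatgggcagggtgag
Rassf1 upstream start: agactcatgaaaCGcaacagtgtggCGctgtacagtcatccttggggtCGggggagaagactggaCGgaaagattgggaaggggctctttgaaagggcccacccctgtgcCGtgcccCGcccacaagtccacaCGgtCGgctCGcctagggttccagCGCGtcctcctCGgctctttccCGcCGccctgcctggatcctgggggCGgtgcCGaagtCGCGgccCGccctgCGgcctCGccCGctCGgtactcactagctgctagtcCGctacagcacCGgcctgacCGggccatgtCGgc
Rassf1 downstream start: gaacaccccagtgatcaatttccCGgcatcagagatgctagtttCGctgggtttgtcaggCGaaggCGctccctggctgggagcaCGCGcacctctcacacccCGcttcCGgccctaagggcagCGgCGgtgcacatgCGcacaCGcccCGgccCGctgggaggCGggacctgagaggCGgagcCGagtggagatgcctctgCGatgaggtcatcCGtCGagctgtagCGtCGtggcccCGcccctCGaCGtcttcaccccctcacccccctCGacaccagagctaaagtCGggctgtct

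A search for CG, which reads the same on both strands, found 45 in the upstream promoter of Cdkn2a and 12 in the downstream one. Of the 32851 promoters of this length in the table, 94.6% held at least 1 CG, the median was 7, and 1.93% held as many as the upstream promoter of Cdkn2a. Trp73 had 39 upstream and 6 at the internal start, and Rassf1 had 27 at each start. The libraries did not read all of them. All 45 of the upstream Cdkn2a promoter had a read in every library, against 0 of 12 downstream, 8 of 39 and 5 of 6 for Trp73, and 2 of 27 and 7 of 27 for Rassf1. In the same table Cdkn2b had 18 CGs with 13 read in every library, Trp53 10 with 0 read, and Cdkn1a 2 with 0 read at its upstream start and 23 with 6 read at its downstream start. Cdkn1c, Rb1 and Cdh1 had no entry, so both gene ends were examined in place of a start.

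The number of CpGs read in every library, out of those read in any, was 189 of 260 for Cdkn2a, 50 of 77 for Cdkn2b, 95 of 143 for Cdkn1a, 57 of 183 for Cdkn1c, 84 of 117 for Trp53, 134 of 366 for Trp73, 126 of 209 for Rb1, 90 of 202 for Cdh1 and 73 of 173 for Rassf1. Whole libraries held 8590777 to 16495423 CpG reads, and a CpG had 3 to 5 reads at the median. Start windows of the B cell genes Ebf1 and Cd79b were under 5% methylated in DMSO, as was that of the T cell gene Cd4 (0.573%). The end window of the myeloid gene Csf1r (2 CpGs) was at 52.8% in DMSO and at 15.1%, 14.8% and 40.1% at the rising doses.

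The start windows of these genes fell into separate classes in DMSO. A start window here means the CpGs within 1 kb of a start, or of a gene end where the table gives no start, and its level is the share of methylated among all its reads. Of 12 windows with at least 10 reads in each library, 6 were under 6% in DMSO (Cdkn2a upstream, Cdkn2b, Cdkn1a downstream, Trp53, Rb1 and Rassf1 downstream) and 6 were at 20% or above (both ends of Cdkn1c, both starts of Trp73, Cdh1 and Rassf1 upstream). Over all 22039 windows tested, 8026 were at 20% or above in DMSO. The other windows of the 9 genes could not be tested: the upstream start of Cdkn1a, the low end of Rb1 and the high end of Cdh1 had no CpG in any library, and the downstream start of Cdkn2a had too few reads.

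Against DMSO, 5-aza-dC lowered methylation in 5 of the 12 windows with 0.2 µM, in 2 with 2 µM and in 0 with 10 µM (adjusted p under 0.05 in a binomial model with limma-moderated dispersion). Among all windows tested 26.3%, 18.6% and 0.0181% were called lower. An unadjusted p under 0.05 was reached by 6, 5 and 2 of the 12 windows, and a limma fit of unweighted CpG means called 6, 3 and 1. Between the doses no window was called: 1 of 12 had an unadjusted p under 0.05 for a higher and 1 for a lower level at 2 than at 0.2 µM. For a higher level it was 1 at 10 than at 2 µM and 3 at 10 than at 0.2 µM, and limma called 0, 0 and 1 higher in these 3 comparisons. The shares of all windows called higher in those 3 comparisons were 0%, 0% and 2.69%. On data simulated for 0.2 µM against DMSO, with the same read correlation for all windows, the window test was conservative. With its prior taken only from windows at 10 to 90%, a setting chosen after seeing the data, it called 6, 5 and 1 lower. Fitted on only the 2 groups compared, 0, 1 and 0 were called, and with only CpGs of at least 5 reads in each library 3, 1 and 0.

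**Figure D1:**
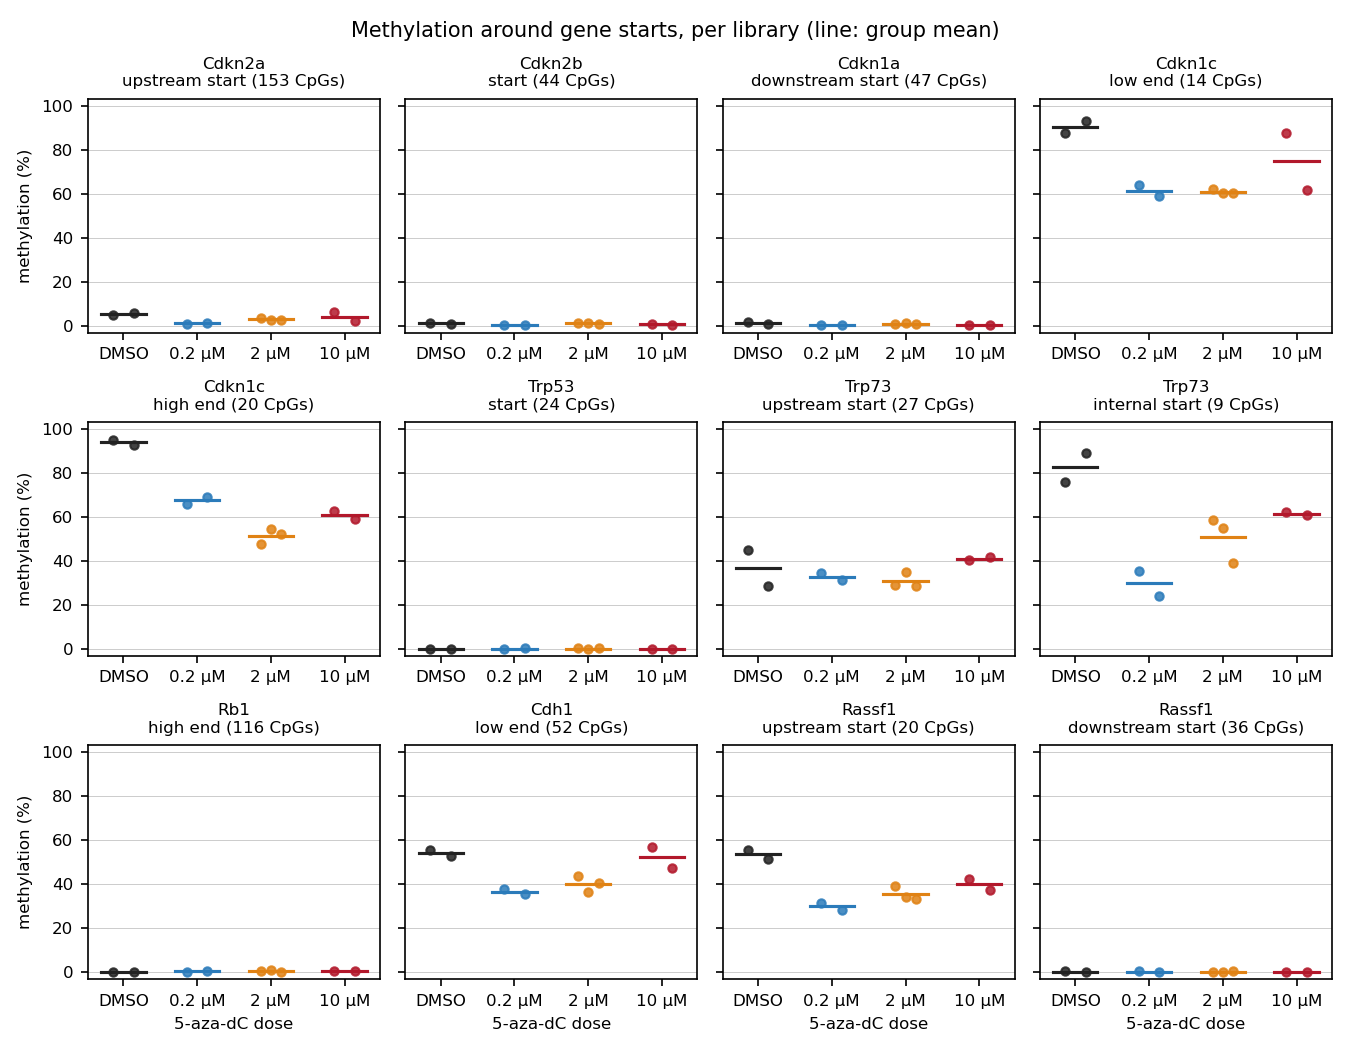
Methylation (%) of each of the 12 start or end windows by 5-aza-dC dose; each point is 1 library, the line is the group mean, and the number of CpGs is given above each panel. 6 windows lie near 0 in every library, and in the other 6 the DMSO points lie between 28.6% and 94.9%.

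Cdkn2a was nearly unmethylated upstream of its Arf start and partly methylated just inside it. The window of the upstream start (153 CpGs, 1080 to 2221 reads per library) was at 5.22% and 5.71% in DMSO, at 1.06% and 1.32% with 0.2 µM, at 3.74%, 2.64% and 2.91% with 2 µM, and at 6.17% and 2.41% with 10 µM. Both 0.2 µM libraries lay below all others, and the 10 µM libraries spanned the DMSO values. The level fell by 4.28 percentage points at 0.2 µM (5.47% ± 0.35 to 1.19% ± 0.19, SD, n = 2 each; adjusted p = 0.0186). At 2 µM (3.10% ± 0.57, n = 3) the adjusted p was 0.207, and at 10 µM (4.29% ± 2.66, n = 2) it was 1.

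The methylation of this window sat on the inner side of the start. In the 250 bp just inside the gene (19 CpGs) 20.5% of DMSO reads were methylated, against 2.19%, 11.4% and 13.9% at the rising doses (means of libraries). In the next 250 bp (13 CpGs) the 4 groups stood at 28.9%, 3.38%, 12.8% and 24.5%. Every 250 bp step upstream of the start was at 5.08% or lower in DMSO, so the window's 5.47% averages 2 unlike sides. The call at 0.2 µM depended on each library of that pair of groups: without either DMSO library or either 0.2 µM library the adjusted p was 0.0797 to 0.0942. With only CpGs of at least 5 reads in each library the change was -0.99 points (adjusted p = 0.419), and with a window of 500 bp either side it was -7.34 points (adjusted p = 0.0202).

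The p16 start of Cdkn2a showed the opposite state at few reads. Only 7 CpGs were read in every library there, 167 to 235 bp inside the start, with 7 to 28 reads per library. Pooled over a group, 41 of 42 reads were methylated in DMSO (97.6%, Wilson 95% interval 87.7 to 99.6%), 8 of 28 at 0.2 µM (28.6%, 15.3 to 47.1%), 20 of 42 at 2 µM (47.6%, 33.4 to 62.3%) and 12 of 28 at 10 µM (42.9%, 26.5 to 60.9%). These counts are of reads at single CpGs, and every library total is a multiple of 7, so each sequenced fragment may count 7 times. The intervals treat such reads as independent and are too narrow even for counting error. The 3 libraries at 2 µM ranged from 0% to 92.9%, and no test was made.

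Cdkn2b, which lies beside Cdkn2a, had an unmethylated start. Its window (44 CpGs) was at 1.44% and 1.08% in DMSO, at 0.461% and 0.397% with 0.2 µM, at 1.57%, 1.40% and 1.04% with 2 µM, and at 0.888% and 0.619% with 10 µM. No change passed the test (adjusted p = 0.682, 1 and 1). The lncRNA gene Gm12610 overlaps Cdkn2b, and reads were not assigned to one or the other.

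Of the CIP/KIP genes, Cdkn1a was nearly unmethylated around its downstream start, and Cdkn1c was methylated at the CpGs read inside the gene. The downstream start of Cdkn1a (47 CpGs) was at 1.66% and 0.951% in DMSO and between 0.258% and 1.19% in all treated libraries, with adjusted p of 0.573, 1 and 1. Cdkn1c is an imprinted gene whose paternal copy is silent in most tissues. None of its 57 CpGs read in every library was under 20% in pooled DMSO reads. Its 34 window CpGs all lay inside the gene, from +579 to +990 bp of the low end and from -984 to -687 bp of the high end, so the gene's own ends were not read in every library. Cdkn1a and Cdkn1c were therefore not compared at like places.

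The high-end window of Cdkn1c (20 CpGs, 123 to 266 reads per library) was at 94.9% and 92.7% in DMSO, at 66.0% and 69.1% with 0.2 µM, at 47.9%, 54.4% and 52.3% with 2 µM, and at 62.9% and 59.3% with 10 µM. All treated libraries lay below both DMSO libraries, and those at 2 µM lay below those at 0.2 µM. The level fell from 93.8% ± 1.57 (SD, n = 2) by 26.3 points at 0.2 µM (adjusted p = 0.0163) and by 42.3 points at 2 µM (adjusted p = 0.00565), and by 32.7 points at 10 µM without passing (adjusted p = 0.0791). Leaving out either DMSO library ended both calls (adjusted p = 0.0615 to 0.0777 at 2 µM), and leaving out either 0.2 µM library ended the first (0.0616 to 0.105 over the 4 libraries). The low-end window (14 CpGs, 14 to 163 reads) was at 87.5% and 92.9% in DMSO, at 63.8% and 59.1% with 0.2 µM, at 62.2%, 60.4% and 60.1% with 2 µM, and at 87.5% and 61.8% with 10 µM. Its differences of -28.8 and -29.3 points at the lower doses had adjusted p of 0.053 and 0.0529, and 0.0161 and 0.0127 with the prior from windows at 10 to 90%.

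In the p53 family the Trp53 start was unmethylated, the internal Trp73 start was methylated and the upstream Trp73 start was partly methylated. The Trp53 window (24 CpGs, all at least 497 bp inside the gene) had 0 methylated of 596 DMSO reads, which allows a level of up to 0.503%. The libraries with methylated reads there were the second of 0.2 µM (0.36%) and the first and the third of 2 µM (0.455% each). Trp73 encodes p73, a relative of p53 with long forms that activate p53 targets and short forms, started inside the gene, that oppose them.

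The internal start of Trp73 (9 CpGs, 28 to 102 reads per library) was at 76.0% and 88.9% in DMSO, at 35.4% and 24.4% with 0.2 µM, at 58.4%, 55.2% and 39.2% with 2 µM, and at 62.1% and 60.7% with 10 µM. All treated libraries were below DMSO, and the 0.2 µM libraries were below all others. The level fell by 52.6 points at 0.2 µM (82.4% ± 9.11 to 29.9% ± 7.78, SD, n = 2 each; adjusted p = 0.012), and the adjusted p was 0.0593 at 2 µM and 0.493 at 10 µM. The first call was lost without either DMSO library or without the second 0.2 µM library (adjusted p = 0.0703 to 0.0881). The upstream start (27 CpGs) was at 45.2% and 28.6% in DMSO, at 34.4% and 31.4% with 0.2 µM, at 29.3%, 35.0% and 28.6% with 2 µM, and at 40.4% and 41.9% with 10 µM. The DMSO libraries set the range there, with no other library above the first or below the second, and the adjusted p was 0.744, 0.594 and 1.

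Rb1, the pocket protein that binds E2F factors, was unmethylated at its CpG-dense end. The high-end window (116 CpGs, 1123 to 2670 reads per library) was between 0.289% and 0.921% in all 9 libraries, with DMSO at 0.337% and 0.309% and adjusted p of 0.954, 0.961 and 1. No CpG of the window was above 13.8% in pooled DMSO reads.

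Cdh1, which encodes the adhesion protein E-cadherin, was methylated at its low end. The window (52 CpGs, 212 to 480 reads per library) was at 55.4% and 52.8% in DMSO, at 37.7% and 35.4% with 0.2 µM, at 43.9%, 36.3% and 40.4% with 2 µM, and at 57.1% and 47.4% with 10 µM. The libraries at the 2 lower doses lay below both DMSO libraries, and the 10 µM libraries spanned them. The level fell by 17.6 points at 0.2 µM (54.1% ± 1.84 to 36.5% ± 1.60, SD, n = 2 each; adjusted p = 0.0488), a call that did not survive leaving out any 1 of the 9 libraries (adjusted p = 0.0586 to 0.213). At 2 µM the adjusted p was 0.108 and at 10 µM 1. With only CpGs of at least 5 reads in each library the change at 0.2 µM was -33.6 points (adjusted p = 0.192).

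The levels within the Cdh1 window were uneven. The 250 bp inside the gene end (20 CpGs) stood at 75.5% in DMSO and 42.8%, 49.5% and 59.1% at the rising doses. The 250 bp outside it (9 CpGs) stood at 30.3%, 22.6%, 24.4% and 31.6%.

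Rassf1, which encodes a scaffold protein of the RAS and Hippo pathways, had a partly methylated upstream start and an unmethylated downstream one. The upstream start, from which the RASSF1A form is made, had 20 CpGs read in every library, 36 to 184 bp inside the start. Its level was 55.7% and 51.4% in DMSO, at 31.7% and 28.2% with 0.2 µM, at 39.2%, 34.4% and 33.3% with 2 µM, and at 42.4% and 37.4% with 10 µM. All treated libraries lay below both DMSO libraries. The level fell from 53.5% ± 3.05 (SD, n = 2) by 23.6 points at 0.2 µM (adjusted p = 0.0181) and by 17.9 points at 2 µM (adjusted p = 0.0471), and the adjusted p at 10 µM was 0.364.

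Single CpGs of the upstream Rassf1 start ranged from 37.1% to 86.7% in pooled DMSO reads, and 18 of the 20 lay between 20% and 80%. Methylation was therefore spread over the CpGs rather than split into full and empty ones. The call at 0.2 µM was lost without either DMSO library or either 0.2 µM library (adjusted p = 0.0642 to 0.113), and that at 2 µM without any 1 of the 9 libraries (0.0596 to 0.276). The downstream start (36 CpGs, 255 to 850 reads per library) was at 0.471% and 0% in DMSO and at most 0.56% in any treated library, with 4 of 1353 DMSO reads methylated. The lncRNA gene Gm34106 and Zmynd10 end within 2 kb of the upstream start, and the window of Gm34106 holds the same 20 CpGs.

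**Figure D2:**
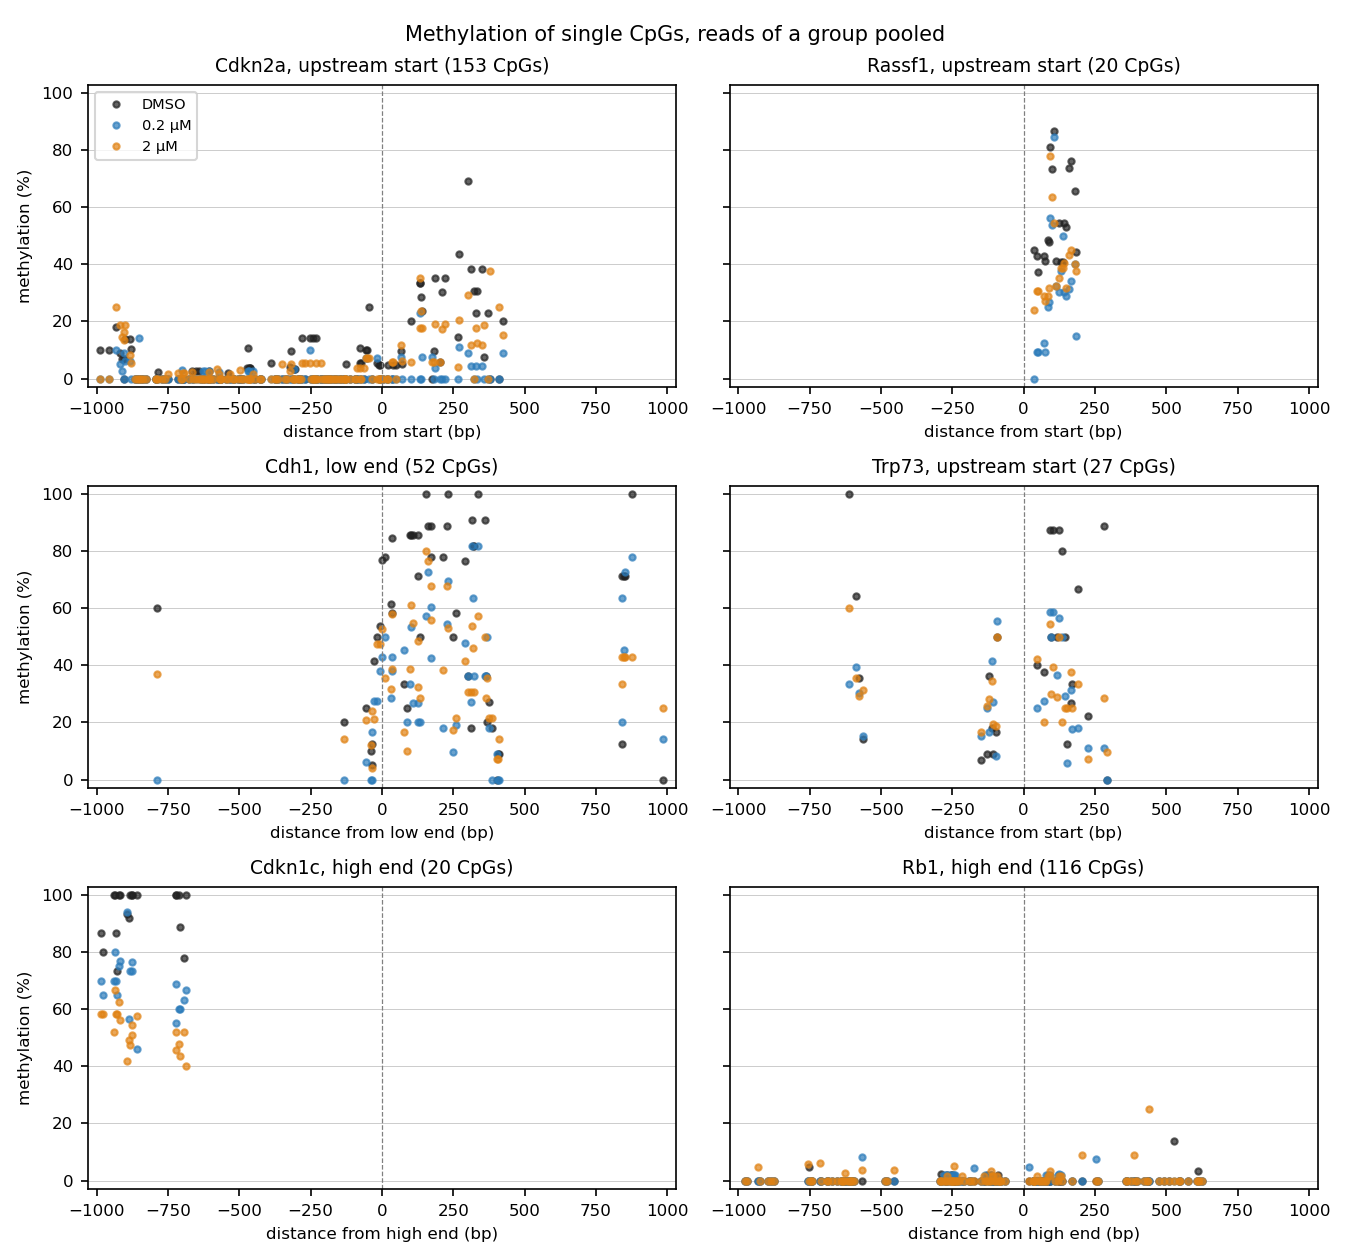
Methylation (%) of single CpGs against distance (bp) from the start or gene end for 6 windows, with the reads of all libraries of a group pooled; black is DMSO, blue 0.2 µM and orange 2 µM. Cdkn2a rises only inside the start, and Rassf1 lies between 37.1% and 86.7% in DMSO at 20 adjacent CpGs. Cdkn1c is high in DMSO at the CpGs read, all inside the gene, and Rb1 is near 0.

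Gene bodies, the CpGs between the gene ends outside the start windows, could be tested for 8 of the 9 genes, since Rassf1 had none. Against DMSO, 5 bodies were lower with 0.2 µM, 5 with 2 µM and 2 with 10 µM, and the shares of all 13918 bodies tested were 84.6%, 69.9% and 27.9%. Between doses, 2 bodies were higher at 2 than at 0.2 µM (33.2% of all bodies) and 1 was lower (0.496%), 3 were higher at 10 than at 2 µM (26.1%), and 5 were higher at 10 than at 0.2 µM (72.5%). The median body of the 8 was at 48.4%, 17.3%, 26.1% and 41.7% in DMSO and the rising doses, beside 75.3%, 24.7%, 41.9% and 57.3% over all bodies. With only CpGs of at least 5 reads in each library, the calls against DMSO that held were those of Trp73, Cdkn1c and Cdh1 at 0.2 µM and of these and Cdkn2b at 2 µM. Between doses only that of Trp73 at 10 over 0.2 µM held, and the Cdkn2a body could not be tested.

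Cdkn2a and Cdkn2b both lost body methylation at the lower doses. The Cdkn2a body (16 CpGs, 30 to 120 reads per library) was at 56.7% and 46.7% in DMSO, at 21.0% and 14.7% with 0.2 µM, at 25.4%, 16.2% and 33.1% with 2 µM, and at 49.3% and 40.0% with 10 µM. It fell by 33.8 points at 0.2 µM (adjusted p = 0.00146) and by 26.8 points at 2 µM (adjusted p = 0.00641, and 0.103 without the first DMSO library), while 10 µM overlapped DMSO (adjusted p = 0.578). It was 26.8 points higher at 10 than at 0.2 µM (adjusted p = 0.0092), a call lost without the second 0.2 µM or the first 10 µM library (0.0608 to 0.0916).

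The Cdkn2a body joined 2 unlike parts, 18409 bp apart, a split made after the values had been seen and not tested. The 13 CpGs on the low side were at 65.7% in DMSO and at 20.7%, 32.3% and 60.2% at the rising doses (means of libraries). The 3 CpGs on the high side (12 to 42 reads per library) were at 25.4%, 9.44%, 12.3% and 13.1%. There both 10 µM libraries (9.52% and 16.7%) lay below both DMSO libraries, unlike in the body as a whole.

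The Cdkn2b body held only 6 CpGs, all in one short run, and 34 to 100 reads per library. It was at 69.7% and 80% in DMSO, at 41.0% and 33.8% with 0.2 µM, at 8.33%, 44.0% and 29.4% with 2 µM, and at 66.0% and 76.7% with 10 µM. The lower doses lay wholly below DMSO and 10 µM overlapped it. The 6 CpGs lie so close together (chr4:89307123-89307169) that a sequenced fragment may count several times. The test allowed for this only with a value estimated over many bodies.

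For Cdkn2b the adjusted p against DMSO was 0.0124, 0.00332 and 0.839 at the rising doses, and 10 µM was higher than 2 µM by 44.1 points (0.018) and than 0.2 µM by 33.9 points (0.0198). The 0.2 µM call was lost without the second DMSO or second 0.2 µM library (0.070 to 0.0831). The difference between 10 and 2 µM was lost without either 10 µM library (0.0676 to 0.0878), and that between 10 and 0.2 µM without the second library of either dose (0.0895 to 0.123).

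Cdkn1c kept more body methylation at 0.2 µM than nearly every other gene body tested and reached its lowest level at 2 µM. Its body (21 CpGs, 127 to 219 reads per library) was at 92.1% and 93.1% in DMSO, at 72.6% and 74.7% with 0.2 µM, at 53.1%, 56.0% and 56.0% with 2 µM, and at 66.1% and 78.7% with 10 µM. The 4 groups did not overlap, except that 10 µM spanned 0.2 µM. It fell by 19.0 points at 0.2 µM (adjusted p = 0.00271), by 37.6 points at 2 µM (0.000159) and by 20.3 points at 10 µM (0.0135, lost without either DMSO or the first 10 µM library at 0.0829 to 0.0916). Only 18 of the 13918 bodies tested (0.129%) had a higher mean at 0.2 µM. The 3790 bodies within 5 points of it in DMSO had a median of 30.8% at 0.2 µM (quartiles 25.2 to 38.5%), 50.0% at 2 µM and 70.2% at 10 µM. Of the 21 Cdkn1c body CpGs, 20 lay close together (chr7:143459675-143460039), and the bodies it was ranked among were not matched for CpG density. The start windows of Id4, Dapk1 and Sfrp1, given below, had levels near that of the Cdkn1c body at 0.2 µM. Their means too were lower at 2 than at 0.2 µM.

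The level of the Cdkn1c body was 18.6 points lower at 2 than at 0.2 µM (adjusted p = 0.0239) and 17.3 points higher at 10 than at 2 µM (0.0382). The first of these calls was lost without either 0.2 µM library (0.103 to 0.12), and the second without any 1 of the 9 libraries (0.0564 to 0.265). Over all bodies, 8.44% had a lower mean at 2 than at 0.2 µM, and among the 8 bodies Cdkn1c and Cdkn2b did. Among the CpG-dense stretches described below, 33.9% of those at 20% or above in DMSO had this order, so it was not particular to Cdkn1c. Over the whole Cdkn1c region, 45 of 57 CpGs were lower at 2 than at 0.2 µM in pooled reads, against 30 of 134 for Trp73 and 27 of 90 for Cdh1. These CpGs share fragments and reads and are no independent replicates.

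Trp73 and Cdh1 had their lowest body level at 0.2 µM and a higher mean at each further dose. The Trp73 body (83 CpGs, 407 to 852 reads per library) was at 44.9% and 45.5% in DMSO, at 15.3% and 18.1% with 0.2 µM, at 30.9%, 27.6% and 29.6% with 2 µM, and at 37.0% and 40.4% with 10 µM. No 2 groups overlapped. It fell by 28.5 points at 0.2 µM (adjusted p = 3.17e-05) and by 15.8 points at 2 µM (0.00145), while the difference of -6.52 points at 10 µM did not pass (0.183). It was higher by 12.7 points at 2 than at 0.2 µM (0.00968, lost without either 0.2 µM library at 0.0644 to 0.0845) and by 22.0 points at 10 than at 0.2 µM (0.000358). The difference of 9.28 points between 10 and 2 µM (0.049) did not survive leaving out any 1 library (0.0639 to 0.18).

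The Cdh1 body (38 CpGs, 168 to 395 reads per library) was at 67.1% and 66.1% in DMSO, at 28.4% and 23.3% with 0.2 µM, at 38.5%, 38.0% and 38.9% with 2 µM, and at 45% and 47.0% with 10 µM. Again no 2 groups overlapped. It fell by 40.7 points at 0.2 µM (adjusted p = 8.85e-05), by 28.2 points at 2 µM (0.000888) and by 20.6 points at 10 µM (0.0258). The call at 10 µM was lost without any library of DMSO or 10 µM (0.0564 to 0.124). It was 20.2 points higher at 10 than at 0.2 µM (0.00785, and 0.0553 without the second 0.2 µM library). The Cdh1 body joined 2 parts 19338 bp apart, a split made after the values had been seen and not tested. On the low side (14 CpGs) the 10 µM libraries (47.8% and 44.4%) lay within the DMSO range (57.5% and 40.7%). On the high side (24 CpGs) they lay below DMSO (43.6% and 48.0% against 73.3% and 77.2%). Libraries at 0.2 and 2 µM lay below both DMSO libraries on each side.

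**Figure D3:**
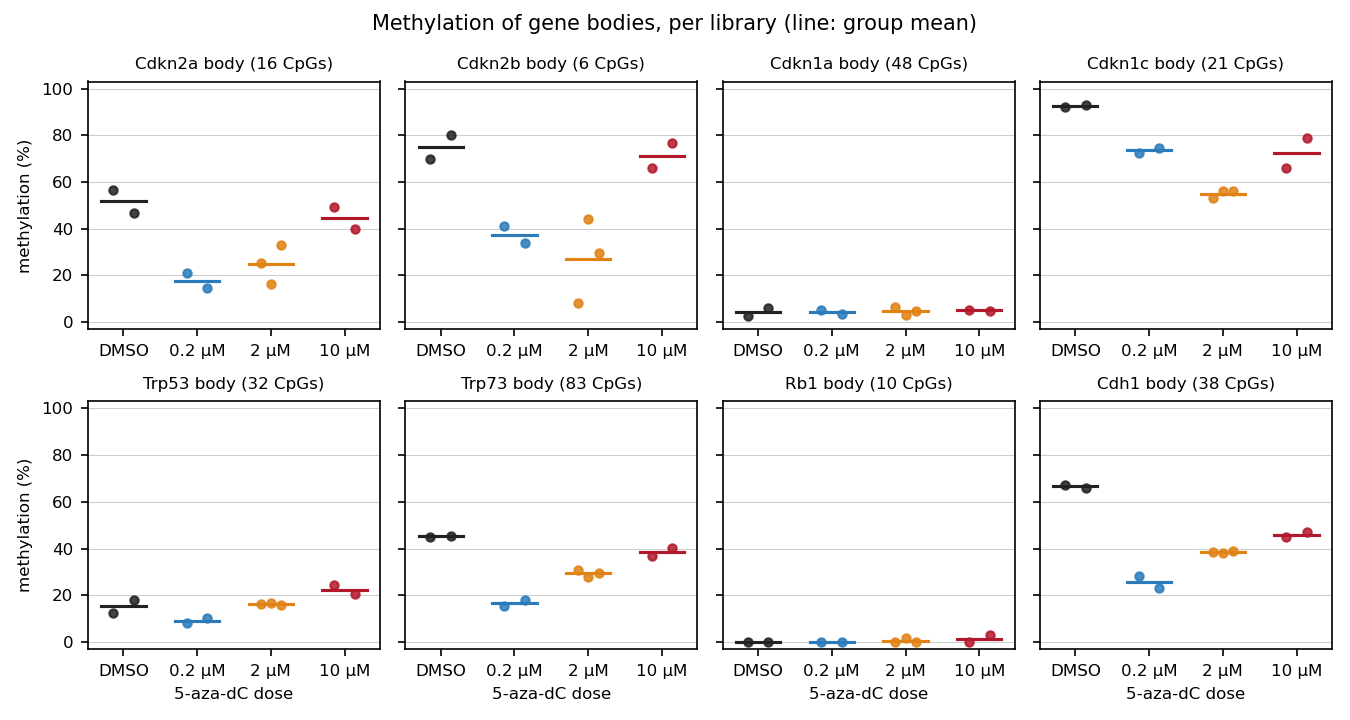
Methylation (%) of the 8 gene bodies by 5-aza-dC dose; each point is 1 library and the line is the group mean. Cdkn2a, Cdkn2b, Trp73 and Cdh1 are low at 0.2 µM and higher again at 10 µM, Cdkn1c is lowest at 2 µM, and Cdkn1a, Trp53 and Rb1 stay at or under 24.3%.

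The Trp53 body joined an unmethylated and a methylated part. As a whole (32 CpGs) it was at 12.4% and 18.1% in DMSO, at 8.28% and 10.1% with 0.2 µM, at 16.5%, 16.7% and 15.8% with 2 µM, and at 24.3% and 20.4% with 10 µM. No dose passed against DMSO (adjusted p = 0.0531, 0.657 and 0.0883), while 10 µM was 13.2 points above 0.2 µM (0.00258). With only CpGs of at least 5 reads in each library that difference was 7.79 points (0.0522). The difference of 7.13 points between 2 and 0.2 µM (0.0424) was lost without any 1 DMSO, 0.2 µM or 2 µM library (0.0551 to 0.194). The widest gap between neighbouring CpGs of the body, 6788 bp, left 22 CpGs on its low side, next to the start, and 10 CpGs on its high side (chr11:69588599-69590387). That split was made after the values had been seen, so its levels are described and not tested.

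On the high side the Trp53 body was at 96.6% and 96.5% in DMSO, at 26.9% and 29.3% with 0.2 µM, at 52.6%, 58.0% and 51.2% with 2 µM, and at 81.3% and 79.0% with 10 µM. No 2 groups overlapped there. On the low side no library was above 1.22%. The high side was lower at 10 µM than in DMSO (80.2% against 96.5%), although the body as a whole had a higher mean. The low side was near 0 in both groups (0.487% and 0% in the DMSO libraries, 0% at 10 µM). The high side held 14.9% of the body's reads in DMSO and 31.0%, 29.9% and 28.3% at the rising doses, so the weight of the 2 parts in the summed level changed with treatment.

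Cdkn1a showed the same layout. Its body (48 CpGs) was between 2.87% and 6.52% in all libraries and passed no test (adjusted p = 0.914, 0.827 and 0.780). The 41 CpGs on the low side of its widest gap were at most 0.916% in any library. The 7 CpGs on the high side (chr17:29098721-29099149) were at 60.4% and 73.3% in DMSO, at 33.9% and 34.1% with 0.2 µM, at 71.8%, 37.7% and 47.6% with 2 µM, and at 58.1% and 70.5% with 10 µM. The 0.2 µM libraries lay below all others, the other groups overlapped, and these 7 CpGs held 5.10% of the body's reads in DMSO and 7.14% to 10.4% in the treated groups. The Rb1 body (10 CpGs, of which 5 lie within the nested gene Lpar6) had 0% in 7 libraries and 1.59% and 2.86% in the others. Its other 5 CpGs (chr14:73324843-73324927) lie at the edge of the unmethylated high-end window. They held 78.7% to 88.5% of the body's reads in the 4 groups. The rest of the Rb1 body was therefore not measured.

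**Figure D4:**
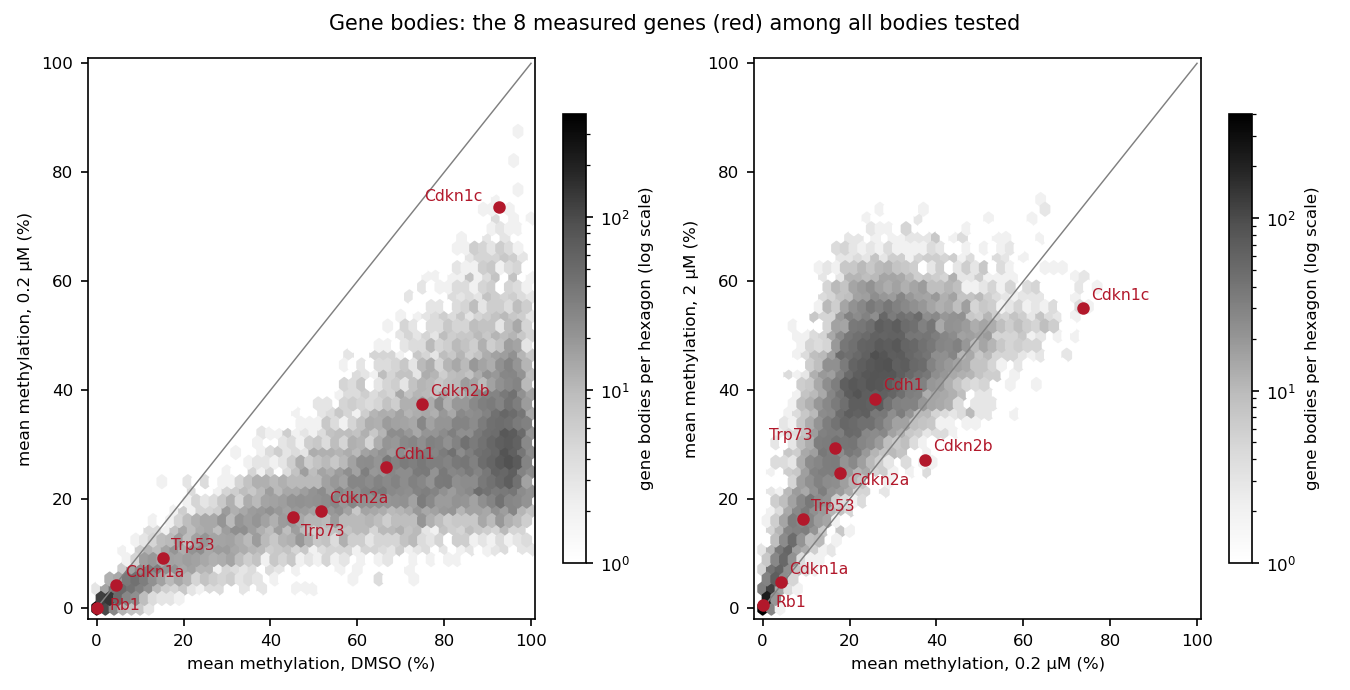
Mean body methylation (%) of all 13918 bodies tested (grey hexagons, log count) with the 8 genes in red; the left panel sets 0.2 µM against DMSO and the right panel 2 µM against 0.2 µM, and the line marks equal levels. Cdkn1c (73.7% at 0.2 µM) lies at the upper edge on the left and, with Cdkn2b, below the line on the right.

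CpG-dense stretches, runs of at least 10 CpGs with gaps of at most 100 bp that were read in every library, gave a second view of islands without using gene starts. Of 21 in the 9 gene regions, 4, 3 and 0 were lower than DMSO at the rising doses, beside 27.7%, 22.8% and 0.469% of all 20675 stretches. An unadjusted p under 0.05 was reached by 7, 6 and 2, and limma on unweighted means called 8, 7 and 1. 1 stretch was higher at 10 than at 0.2 µM (7.75% of all). None was called higher between 0.2 and 2 µM or between 2 and 10 µM (0% of all; 1 and 2 with an unadjusted p under 0.05; limma 0 and 0).

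The stretch with the largest change of the 21 was inside Trp73, far from either start (chr4:154064369-154064627, 12 CpGs, 32 to 168 reads per library). It was at 83.3% and 87.5% in DMSO, at 24.2% and 16.1% with 0.2 µM, at 35.4%, 47.2% and 37.4% with 2 µM, and at 77.6% and 73.2% with 10 µM. No 2 groups overlapped. It fell by 65.3 points at 0.2 µM (adjusted p = 0.00471) and by 45.4 points at 2 µM (0.0152, lost without either DMSO library at 0.102 to 0.109), and was 55.3 points higher at 10 than at 0.2 µM (0.0243, lost without any DMSO, 0.2 µM or 10 µM library at 0.0633 to 0.159). This was 1 of 5 stretches in the Trp73 region, and none of the other 4 passed against DMSO.

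Several other stretches share CpGs with the windows above. A Cdkn1c stretch of 18 CpGs (chr7:143460003-143460202) fell from 93.6% to 70.2% at 0.2 µM (adjusted p = 0.0215, lost without any DMSO or 0.2 µM library at 0.0573 to 0.133) and to 53% at 2 µM (0.00408, and 0.0556 without the first DMSO library). A neighbour of 16 CpGs in the gene body (chr7:143459675-143459820) was at 92.5% in DMSO and 57.1% at 2 µM (0.00647, lost without either DMSO library at 0.0649 to 0.0661). The stretch over the Arf start of Cdkn2a (chr4:89294194-89295652, 156 CpGs) fell by 4.33 points at 0.2 µM (0.0134, lost without any library of either group at 0.062 to 0.079). The upstream Rassf1 stretch is the same 20 CpGs as its window (0.0231 at 0.2 µM, lost without any library of either group at 0.0791 to 0.135). The Cdh1 stretch had a change of -17.8 points at 0.2 µM that did not pass (0.0653).

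Other genes of the pathway were mostly unmethylated at their starts. Of 6 further CDK inhibitors and pocket proteins 5 could be tested, with 6 start windows that were all under 5% and of which 0 were lower at any dose. The 11 cyclins, kinases and E2F factors had 13 windows, of which 12 were under 5%. The exception was one of 2 starts of Ccnd3, a D-type cyclin that drives Cdk4 and Cdk6 (3 CpGs): it fell from 97.2% in DMSO to 28.3% at 0.2 µM (adjusted p = 0.00875) and 53.7% at 2 µM (0.0262). In the p53 pathway 9 of 11 genes had 11 windows, all under 5%, and 0 were lower at any dose. Of all windows tested, 26.3%, 18.6% and 0.0181% were called lower at the rising doses. A window under 5% in DMSO has little room to fall, so these counts of 0 say little about the effect of the doses. The median window in DMSO was at 0.394% in the first list, 0.494% in the second and 0.796% in the third, beside 1.79% over all windows tested.

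The last list holds tumour suppressors known for promoter methylation in cancers. Of 22 such genes 19 had 20 windows, of which 6 were at 20% or above in DMSO, and 5, 4 and 0 were lower at the rising doses, near the 26.3%, 18.6% and 0.0181% of all windows. Their median window was at 3.50% in DMSO. Id4, an inhibitor of helix-loop-helix factors, was at 96.5% in DMSO, 74.5% at 0.2 µM (adjusted p = 0.00839), 57.3% at 2 µM (0.00321) and 77.7% at 10 µM. Dapk1, a kinase that promotes cell death, was at 93.7%, 71.9% (0.0102), 57.6% (0.00386) and 68.6%. Sfrp1, a secreted WNT antagonist, was at 95.6%, 74.6% (0.0297), 63.8% (0.0116) and 82.6%. Cadm1, an adhesion protein, was at 86.3%, 64.6% (0.0497), 55.7% (0.0167) and 68.9%. In these 4 genes, as in the high end of Cdkn1c, the mean at 2 µM was below that at 0.2 µM. The same order held in 31.6% of all windows and in 28.7% of those at 20% or above in DMSO. Mgmt, a DNA repair enzyme (76.9%, 51.0%, 55.2% and 61.3%), and Dlc1 (41.7%, 14.9%, 29.1% and 25.9%), did not pass at any dose.

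Bodies of the listed genes were lower at 0.2 µM in 1 of 2 CDK inhibitors and pocket proteins, 3 of 7 cyclins, kinases and E2F factors, 4 of 6 p53 pathway genes and 15 of 17 tumour suppressors. At 2 µM the counts were 1, 2, 4 and 13, and at 10 µM 0, 1, 3 and 6. Over all bodies 84.6%, 69.9% and 27.9% were called, and no list was tested against them. Rbl2, a pocket protein, went from 83.7% in DMSO to 28.4% at 0.2 µM. Among the p53 pathway genes Pmaip1, a promoter of cell death, went from 91.3% to 27.2% and Chek2, a checkpoint kinase, from 96.3% to 38.8%.

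Start windows of other genes with levels most like the 6 methylated ones were sought by the root mean square difference over the 9 libraries among 22039 windows. After Gm34106, which shares its CpGs, the upstream start of Rassf1 was nearest to Gm33587 (2.80 points) and Atp11a (2.88 points). Cdh1 was nearest to Bicdl1 (3.10 points) and Slc18a2 (3.60 points). The high end of Cdkn1c was nearest to Hs6st2 (3.37 points), Mir9-3 (3.50 points) and Nav3 (3.50 points), and its low end to Anks6 (4.78 points). Trp73 was nearest to Pbld1 at its internal start (5.42 points) and to Prdm13 at its upstream start (4.12 points).

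Read depth moved with treatment in most of these regions. Per 1000000 CpG reads of a library, the Cdkn1c region drew a mean of 35.6 reads in DMSO and 53.2 to 57.1 in the treated groups, Trp73 78.2 against 97.9 to 110, and Cdh1 46.0 against 54.1 to 60.0. The group means of the regions at 12.2% or less in DMSO went the other way. Cdkn1a drew 155 in DMSO against 108 to 117, Rb1 172 against 133 to 150 and Rassf1 111 against 77.1 to 84.5. Trp53 drew 90 against 72.4 to 74.8, and Cdkn2a 145 against 132 to 135. For Cdkn2b the means were 49.6 against 44.8 to 48.1, but its libraries overlapped (55.9 and 43.4 in DMSO, 35.3 to 54.3 with treatment). The part of this shift in the levels above was not tested.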

How the data were processed

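RRBS was analysed from 1 deposited table per library (9 libraries in 4 groups). The authors deposited a score and the methylated over total reads of each CpG; that deposited score equalled the methylated share in every line and was not used further. Positions are on mm10, per the submitters' processing notes; aligner, methylation caller and filters: not given in the sources used here. All 256267 deposited CpGs inside RefSeq promoters (GRCm38.p6) fell on a CG. Between 1 and 2 lines of unusual width and 18 to 68 lines at repeated positions per library were left out.

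Reads were summed over start windows (1 kb either side), gene bodies and CpG-dense stretches with at least 10 reads in each library. Each was fitted with a binomial model on all 9 libraries, 1 level per group, with reads scaled to their effective size (read correlation within a library, in 5 coverage classes), dispersion moderated across all features with limma 3.58.1 in R 4.3.3 and kept at 1 or above, and a likelihood ratio F test. P-values were Benjamini-Hochberg adjusted over all features of a layer, and 0.05 was the threshold. The window test was conservative on simulated data in which all windows had the same read correlation. In the libraries the estimate for windows ranged from 0.00276 to 0.0305 between coverage classes. The simulation therefore cannot show that the test was conservative on these data. Levels are means of libraries ± SD. The precision of a level depends on its reads, which are printed beside it for only part of the features. They are not printed for the wider lists and the markers, so the precision of those levels cannot be judged here. Single shares carry Wilson intervals at 95% from scipy 1.17.1, and a count of 0 allows 3 counts. Both treat reads at neighbouring CpGs as independent, so they are too narrow where CpGs share a fragment.

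The genes, the 4 wider lists and the marker lists were chosen with earlier results of these data known. Named from the wider lists are genes with a start window at 20% or above in DMSO or, in a list without one, the 2 with the largest body change; markers without tested windows are not named, and 1 marker is not reported here. Alternatives were other read minimums, limma on unweighted means, unscaled reads, no dispersion floor, a replicate block, fits of only 2 groups, other windows and stretches, each library left out, and, chosen after seeing the data, a prior from features at 10 to 90%. The replicate numbers were checked for pairing and do not pair the libraries.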

Additional observations from a re-analysis of the deposited data

How the results depend on the processing

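Each library was left out in turn. The number of the 12 start windows called lower then ranged from 0 to 4 at 0.2 µM, 0 to 1 at 2 µM and 0 to 0 at 10 µM, and for the 3 dose comparisons (2 over 0.2, 10 over 2 and 10 over 0.2 µM) it was 0 to 0 higher. For bodies the ranges were 4 to 6, 4 to 5 and 0 to 2 lower, and 0 to 2, 0 to 1 and 2 to 5 higher. For stretches they were 1 to 5, 0 to 3 and 0 to 0 lower, and 0 to 0, 0 to 0 and 0 to 1 higher. Of 74 single changes followed, 38 were called; 27 of these were lost without some single library, 9 held under every alternative, and 0 reversed. 18 of the 36 uncalled ones passed under some alternative, and 9 changed sign without some library. The cause of a lost call was not tested, except that leaving out a library or a group leaves fewer samples to estimate the spread.

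Replicate numbers did not pair the libraries: deviations of same-numbered libraries correlated at -0.025 to 0.025 over windows or bodies. Fitted with a replicate block all the same, windows gave 0, 0 and 0 lower and 0 higher in each dose comparison. Bodies gave 5, 5 and 0 lower and 0, 0 and 5 higher, and stretches 0, 0 and 0 lower and 0 higher at 10 over 0.2 µM. With only the 2 compared groups in the fit, windows gave 0 lower at 0.2 µM and 1 at 2 µM. Bodies then gave 0 lower at 10 µM, and 1, 0 and 5 higher. Stretches gave 1 lower at 0.2 µM and 0 higher at 10 over 0.2 µM.

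Windows of 500 bp gave 3 lower at 0.2 µM and 0 at 2 µM; windows of 250 bp gave 0 and 0. CpGs with at least 5 reads in each library gave 3 and 1 lower windows at 0.2 and 2 µM. For bodies they gave 3 lower at 0.2 µM, 0 at 10 µM, and 0, 0 and 1 higher, and for stretches 1, 0 lower and 0 higher at 10 over 0.2 µM. At least 30 reads per feature gave windows 1 at 2 µM and 1 at 10 µM, and stretches 1 lower at 10 µM and 2 higher at 10 over 0.2 µM. limma on unweighted means gave 1 window lower at 10 µM and 1 higher at 10 over 0.2 µM, 5 bodies higher at 10 over 2 µM, and 8, 7 and 1 stretches lower and 2 higher at 10 over 0.2 µM. Unscaled reads gave 5 windows lower at 2 µM, 1 at 10 µM and 3 higher at 10 over 0.2 µM. For stretches they gave 8, 6 and 2 lower, and 1, 2 and 4 higher. Without the dispersion floor windows gave 5 lower at 2 µM, 2 at 10 µM and 3 higher at 10 over 0.2 µM. Stretches gave 8, 7 and 3 lower, and 2 and 4 higher at 10 over 2 and 10 over 0.2 µM. The prior from features at 10 to 90% gave 5 windows lower at 2 µM, 1 at 10 µM and 3 higher at 10 over 0.2 µM; stretches gave 1 lower at 10 µM, and 1 and 2 higher at 10 over 2 and 10 over 0.2 µM. Stretches with gaps of 50 bp gave 0 higher at 10 over 0.2 µM, and those of 20 CpGs gave 1 lower at 2 µM.

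The level over all CpGs of a region in DMSO moved with the weighting. As unweighted means of CpGs, and then with only CpGs of at least 5 reads, it was 15.1% and 1.55% for Cdkn2a (9% as summed reads), 11.1% and 6.13% for Cdkn2b (7.17%), 90.9% and 94.8% for Cdkn1c (92.3%), 11.9% and 3.30% for Trp53 (5.46%), 62.5% and 62.6% for Cdh1 (59.8%) and 17.8% and 13.3% for Rassf1 (12.2%). Cdkn1a was at 5.69% (3.22%) and Trp73 at 54.4% (46.2%) unweighted, and Rb1 at 0.339% (0.309%) with the read minimum. The low depth per CpG limits single CpGs, and 2 libraries in most groups limit the test.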
